A study of Mus musculus with 6 samples.

Results

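The genes described are 10 members of the heat shock family: the regulator Hsf1, the HSP70 genes Hspa1a, Hspa1b and Hspa8, their partners Hsph1 and Dnajb1, the small heat shock protein gene Hspb1, the HSP90 gene Hsp90aa1, and the mitochondrial pair Hspd1 and Hspe1. They were taken by gene symbol, and all 10 were found among the 22173 symbols in the expression table. All 10 also passed the filter on low values, which kept 10681 genes. The study compared livers of wild type mice that received DDK, which the series title calls a limonoid, with livers of mice that received vehicle. All mice in both groups were fed a diet labelled HFHC for 16 weeks from 6 weeks of age, and DDK or vehicle was given in the last 4 weeks. Each group held 3 mice with 1 liver RNA-seq library each. The labels give the compound and the diet only by these abbreviations, and the title and design text place the study in metabolic dysfunction-associated steatohepatitis. There was no group on a control diet, so every level below is a level under HFHC feeding. Hepatocyte markers were abundant in every library, with summed values of 47930 to 73780 FPKM over 15 genes. FPKM counts fragments relative to gene length and to the total of the library.

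Heat shock chaperones bind unfolded or partly folded proteins and help them to fold, to assemble or to be passed on for degradation. Heat shock factor 1, the product of Hsf1, is held inactive in unstressed cells, and under protein-damaging stress it forms trimers that bind heat shock elements, arrays of the unit GAA in alternating orientation, in front of the inducible chaperone genes. Its activity is set largely at the level of the protein, so its own transcript level is not a measure of that activity.

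In the livers of DDK-treated mice 6 of the 10 genes were lower and 0 were higher than in vehicle livers, at an adjusted p under 0.05 from limma with Benjamini-Hochberg adjustment over all genes. Hspa1b, the stress-inducible HSP70, fell 6.70-fold in mean FPKM. Hsph1, Hspb1 and Hsp90aa1 fell 2.86-fold, 2.53-fold and 2.41-fold, and the low Hspa1a fell 3.57-fold and Dnajb1 1.51-fold. Hsf1, the constitutive HSP70 gene Hspa8, Hspd1 and Hspe1 did not pass the test. Of all 10681 genes tested, 30.3% were called lower, 10.2% higher and 40.5% in either direction, and the member counts are to be read against those shares. At an unadjusted p under 0.05 the counts were 6 lower and 1 higher. The median log2 fold change of the 10 genes was −0.71, beside −0.23 over all genes tested. Because the samples are whole livers, fewer cells of a type and less RNA per cell cannot be told apart.

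**Figure D1:**
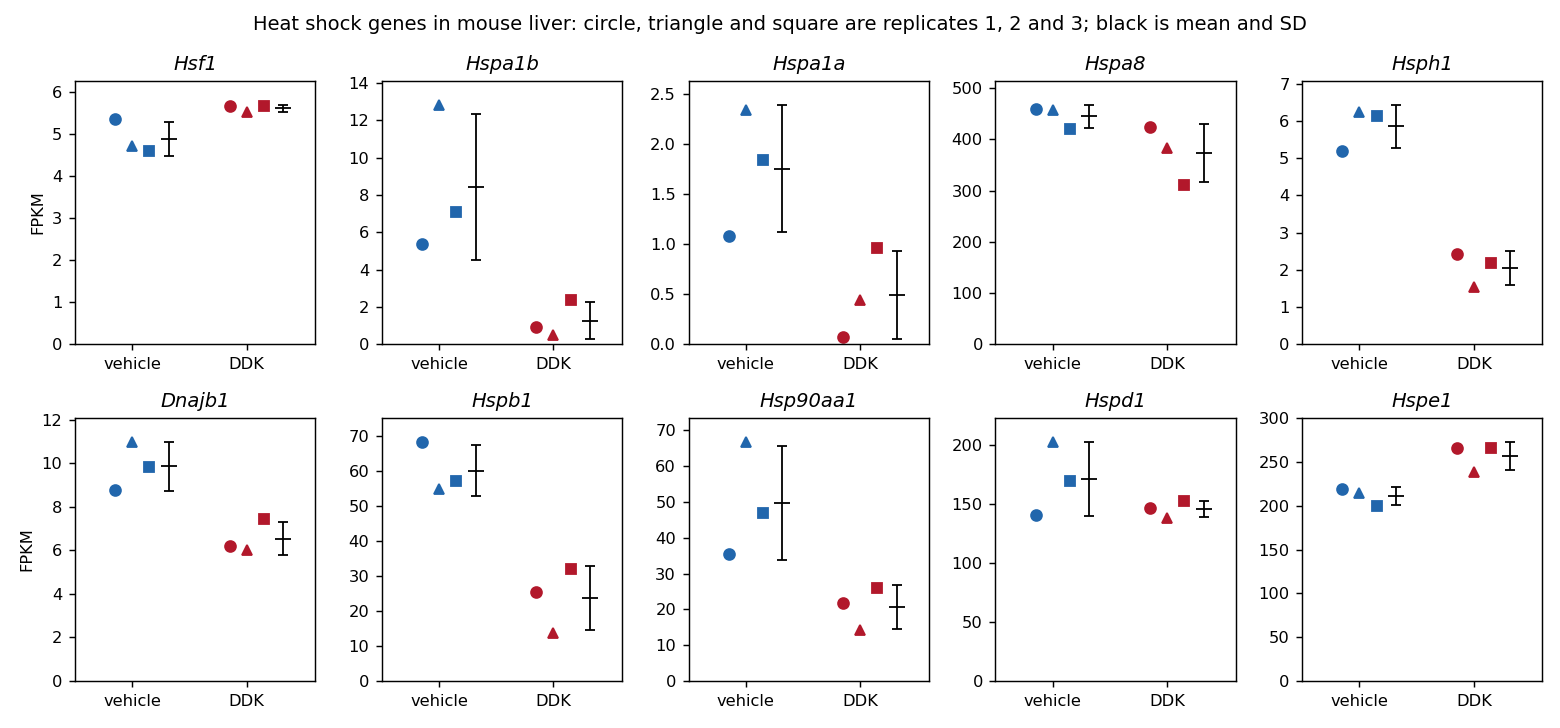
FPKM (y axis, linear, from 0) of the 10 heat shock genes in the 3 vehicle and 3 DDK livers (x axis). Circle, triangle and square are replicates 1, 2 and 3 and the black bars give mean and SD; in 6 panels all DDK points lie below all vehicle points, in the panels of Hsf1 and Hspe1 they lie above, and in those of Hspa8 and Hspd1 the groups overlap.

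Sequence in front of these genes was examined because heat shock factor 1 binds heat shock elements in front of inducible chaperone genes. RefSeq promoter windows on GRCm38.p6, 250 bases before to 50 after each start site, were given for 7 of the 10 genes (10 windows), with no entry for Hsf1, Hspa8 or Hsp90aa1. The stretches before the start sites of Hspa1b, the member with the largest fall, and Hspb1, the small heat shock protein gene, are printed 5′ to 3′ on the gene's strand. Capitals mark pairs of heat shock element units, GAANNTTC or TTCNNGAA, where N is any base.
Hspa1b, chr17:34959239-34959488, minus strand: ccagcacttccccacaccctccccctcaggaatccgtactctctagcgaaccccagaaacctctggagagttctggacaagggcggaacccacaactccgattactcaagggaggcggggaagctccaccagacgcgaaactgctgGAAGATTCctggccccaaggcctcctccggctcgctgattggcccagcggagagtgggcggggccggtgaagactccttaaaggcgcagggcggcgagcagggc
Hspb1, chr5:135887669-135887918, plus strand: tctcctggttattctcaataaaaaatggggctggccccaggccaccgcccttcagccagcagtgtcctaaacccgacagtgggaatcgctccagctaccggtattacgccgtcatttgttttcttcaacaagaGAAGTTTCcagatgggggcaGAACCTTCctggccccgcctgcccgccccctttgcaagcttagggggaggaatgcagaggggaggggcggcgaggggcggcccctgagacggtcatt
The next stretches show the longer arrays of the mitochondrial pair and of Hsph1, in which at least 3 units alternate in a row, together with a separate pair in front of the Hsph1 start. The array printed for Hspe1 is also the one inside the Hspd1 window, since both genes start from the same region in opposite directions.
Hspe1, chr1:55088053-55088082, plus strand: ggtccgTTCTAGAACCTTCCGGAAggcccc
Hsph1 before the start, chr5:149636351-149636380, minus strand: gggtagaatctTTCTCGAAggctcgagaag
Hsph1 after the start, chr5:149636287-149636315, minus strand: gtaaaatgctgcagaTTCTGGAAAGTTCt
A pair of units, searched on both strands in both of its forms, was present in the windows of 6 of the 7 genes (Hspa1a, Hspa1b, Hsph1, Hspb1, Hspd1 and Hspe1) and not in the Dnajb1 windows. The same search found a pair for 17.0% of the 27025 symbols that have a window. The members were chosen as targets of heat shock factor 1 and as mitochondrial chaperonins, so how many hold such elements is partly set by that choice. Hspd1 and Hspe1 share the same array and the Hspa1a and Hspa1b windows are near copies, so the 6 genes do not hold 6 separate sites. An array of 3 alternating units, in which a GAANNTTC pair and a TTCNNGAA pair share a unit, was present for Hsph1, Hspd1 and Hspe1 and for 0.662% of all symbols. CCAAT, the box bound by the NF-Y factor, was present for Hspa1a, Hspa1b, Hsph1, Dnajb1 and Hspd1 and for 41.1% of all symbols. The pair is contained in the array of 3 units, no CCAAT box overlapped a pair in the windows of these genes, and a match is a description of the sequence. Among tested genes with a pair in the window, 383 of 1228 were called lower (31.2%) and 126 higher, and among those with 3 units 13 of 53 were called lower (24.5%) and 7 higher, close to or below the 30.3% over all tested genes. Of the members with 3 units, Hsph1 fell, and Hspd1 and Hspe1 were not called.

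**Figure D2:**
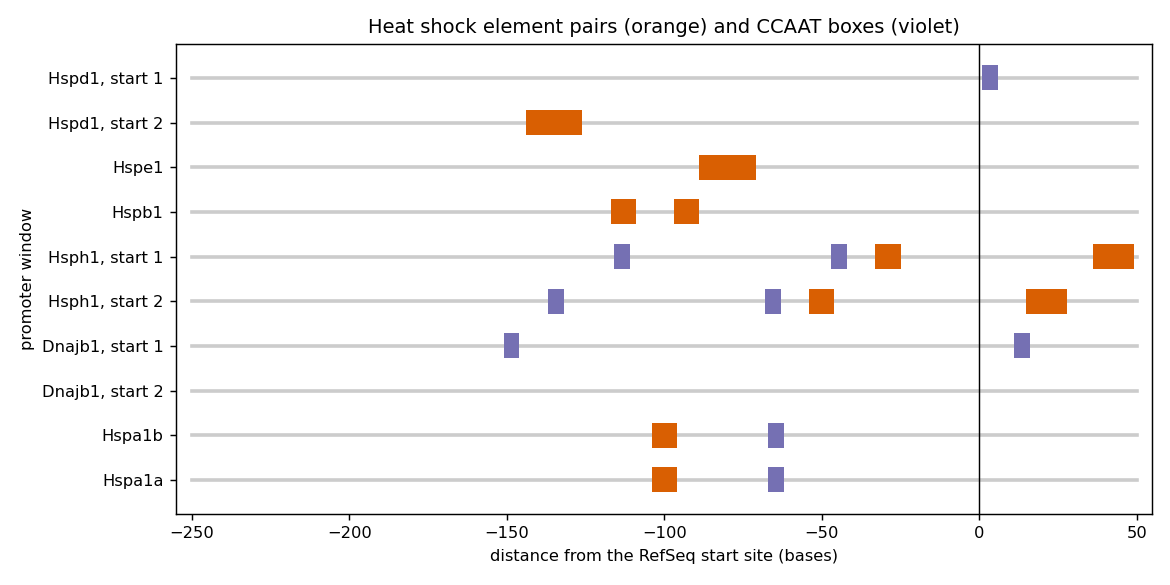
Positions of heat shock element pairs (orange) and CCAAT boxes (violet) in the promoter windows of 7 heat shock genes, drawn by distance in bases from the RefSeq start site (x axis), with 1 line for each of the 10 windows. Pairs lie in the windows of 6 genes and in neither of the Dnajb1 windows.

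Hsf1 (chr15:76477422-76501913, plus strand, GRCm38) stood at 5.66, 5.52 and 5.65 FPKM in DDK livers 1 to 3 and at 5.35, 4.71 and 4.60 FPKM in vehicle livers 1 to 3. All DDK livers were above all vehicle livers, and the gap between the groups was small beside the levels. The means were 5.61 ± 0.0786 FPKM (SD, n = 3) and 4.89 ± 0.405 FPKM (SD, n = 3). On the log2(FPKM + 1) scale used for all tests the difference was 0.17 ± 0.13 (SE), which did not pass (adjusted p = 0.319, limma with Benjamini-Hochberg adjustment). The direction of that difference depended on the scaling, as given below. The transcript of the factor was thus not among the 6 that fell.

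The inducible HSP70 is encoded by the neighbouring genes Hspa1a and Hspa1b, whose products refold and hold damaged proteins and are made in quantity only under stress. Hspa1b (chr17:34956436-34959238, minus strand) was at 0.916, 0.469 and 2.39 FPKM in DDK livers 1 to 3 and at 5.37, 12.8 and 7.09 FPKM in vehicle livers 1 to 3. The groups did not overlap, although vehicle liver 2 stood well above the other vehicle livers and DDK liver 3 above the other DDK livers. Mean levels were 1.26 ± 1.01 FPKM (SD, n = 3) with DDK and 8.43 ± 3.91 FPKM (SD, n = 3) with vehicle, a log2 fold change of −2.08 ± 0.34 (SE, adjusted p = 0.00215, limma with Benjamini-Hochberg adjustment). These levels rest on 74, 35 and 203 fragments in the DDK libraries and 545, 1232 and 677 in the vehicle libraries.

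Hspa1a (chr17:34969190-34972156, minus strand) was the least abundant member, at 0.0746, 0.444 and 0.957 FPKM with DDK and 1.08, 2.34 and 1.84 FPKM with vehicle. Every DDK liver was below every vehicle liver, with DDK liver 3 close to vehicle liver 1. The DDK values rest on 6, 33 and 81 fragments, and the value of DDK liver 1 has an exact Poisson 95% interval of 0.0274 to 0.162 FPKM, which covers counting error only. The log2 fold change was −0.90 ± 0.23 (SE, adjusted p = 0.0144, limma with Benjamini-Hochberg adjustment), and this scale understates changes of genes at so low a level. The 300-base promoter windows of the 2 genes are 98.7% identical. Counted from 1 at the 5′ end of the window, with the Hspa1b base first, they differ by T44C, C47T, G249T and T276C. Because the genes are near copies and the handling of fragments that match both is not stated in the labels or the table, the division of fragments between them is uncertain. Hspa1a also overlaps the predicted gene Gm20481 on the opposite strand over 2225 bp, and a library kit without strand marking does not separate them.

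The sum of Hspa1a and Hspa1b does not depend on that division, provided that each fragment matching both copies was counted once. Fragments left out, counted for both copies or coming from Gm20481 would still affect the sum. The summed level was 0.990, 0.913 and 3.35 FPKM in DDK livers 1 to 3 and 6.45, 15.2 and 8.94 FPKM in vehicle livers 1 to 3. The groups stayed apart, with means of 1.75 ± 1.38 and 10.2 ± 4.49 FPKM (SD, n = 3 each), a 5.82-fold difference. Tested as 1 gene in the fit over all genes, a test added after the data were seen, the pair gave a log2 fold change of −2.06 ± 0.35 (SE, adjusted p = 0.00258, limma with Benjamini-Hochberg adjustment). The ratio of Hspa1b to Hspa1a was 12.3, 1.06 and 2.50 with DDK and 4.98, 5.48 and 3.85 with vehicle, so it varied most among the DDK livers, where both genes were low.

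Hspa8 (chr9:40800984-40810087, plus strand) encodes the constitutive cytosolic HSP70 that folds new proteins and uncoats clathrin vesicles. It was the most abundant of the 10 genes in every liver, at 425, 383 and 312 FPKM with DDK and 458, 457 and 420 FPKM with vehicle. DDK livers 2 and 3 were below all vehicle livers and DDK liver 1 lay inside the vehicle range. The difference of −0.26 ± 0.15 (SE) on the log2 scale did not pass (adjusted p = 0.169, limma with Benjamini-Hochberg adjustment). Per kilobase of gene length, Hspa8 exceeded the sum of the inducible pair 429-fold, 419-fold and 93.2-fold in DDK livers 1 to 3, against 71.0-fold, 30.2-fold and 47.0-fold in vehicle livers 1 to 3. All ratios with DDK were above all ratios with vehicle. The annotation also places the small nucleolar RNA genes Snord14c, Snord14d and Snord14e inside Hspa8.

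HSP70 works with J proteins, which load clients and start ATP hydrolysis, and with nucleotide exchange factors, which release the product. Hsph1 (chr5:149614287-149636376, minus strand), an HSP110 that exchanges nucleotide on HSP70, was at 2.41, 1.55 and 2.17 FPKM with DDK and 5.19, 6.25 and 6.12 FPKM with vehicle. The groups were far apart for their spread, with means of 2.05 ± 0.446 and 5.85 ± 0.577 FPKM (SD, n = 3 each). Its log2 fold change of −1.18 ± 0.16 (SE) had the smallest adjusted p of the 10 genes (0.00117, limma with Benjamini-Hochberg adjustment).

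Dnajb1 (chr8:83608193-83612653, plus strand), the stress-inducible J protein, was at 6.20, 5.99 and 7.42 FPKM with DDK and 8.75, 11.0 and 9.84 FPKM with vehicle. All DDK livers were below all vehicle livers, and DDK liver 3 came nearest to the vehicle group. The means were 6.54 ± 0.772 and 9.86 ± 1.12 FPKM (SD, n = 3 each), with a log2 fold change of −0.53 ± 0.14 (SE, adjusted p = 0.018, limma with Benjamini-Hochberg adjustment). Dnajb1 is the weakest of the 6 calls, and it was lost in 8 of 20 alternative analyses.

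Hspb1 (chr5:135887919-135889563, plus strand) encodes a small heat shock protein that holds unfolded clients without using ATP and acts on actin filaments. It was at 25.3, 13.8 and 31.9 FPKM in DDK livers and 68.2, 54.6 and 57.0 FPKM in vehicle livers. The highest DDK liver was clearly below the lowest vehicle liver. Mean levels of 23.7 ± 9.21 and 60.0 ± 7.27 FPKM (SD, n = 3 each) gave a log2 fold change of −1.38 ± 0.25 (SE, adjusted p = 0.00364, limma with Benjamini-Hochberg adjustment).

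Hsp90aa1 (chr12:110690605-110702728, minus strand) encodes the inducible form of cytosolic HSP90, which completes the folding of kinases and steroid receptors. Its level was 21.7, 14.1 and 26.0 FPKM with DDK and 35.4, 66.8 and 46.9 FPKM with vehicle. The groups did not overlap, and the vehicle livers were spread more widely than the DDK livers. The means were 20.6 ± 6.02 and 49.7 ± 15.9 FPKM (SD, n = 3 each), and the log2 fold change was −1.22 ± 0.25 (SE, adjusted p = 0.00589, limma with Benjamini-Hochberg adjustment). Its constitutive partner Hsp90ab1 fell too, from 389 ± 8.61 to 241 ± 25.6 FPKM (SD, n = 3 each), with a log2 fold change of −0.69 (adjusted p = 0.00375, limma with Benjamini-Hochberg adjustment), a call lost under median-ratio scaling and with voom. The ratio of Hsp90aa1 to Hsp90ab1 was 0.0916, 0.0650 and 0.0970 with DDK and 0.0906, 0.169 and 0.124 with vehicle. Vehicle liver 1 fell inside the DDK range of that ratio, so the groups overlapped.

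Hspd1 and Hspe1 encode HSP60 and HSP10, the barrel and the lid of the chaperonin that folds imported proteins in the mitochondrial matrix. Hspd1 (chr1:55077835-55088243, minus strand) was at 147, 138 and 152 FPKM with DDK and 140.2, 203 and 170 FPKM with vehicle. Vehicle liver 1 lay among the DDK livers, and the log2 difference of −0.21 ± 0.15 (SE) did not pass (adjusted p = 0.273, limma with Benjamini-Hochberg adjustment). Hspe1 (chr1:55088132-55091307, plus strand) was at 266, 239 and 266 FPKM with DDK and 220, 215 and 200 FPKM with vehicle. Here all DDK livers were above all vehicle livers, with means of 257 ± 16.0 and 211 ± 10.2 FPKM (SD, n = 3 each). The log2 difference of 0.28 ± 0.12 (SE) did not pass (adjusted p = 0.0894, limma with Benjamini-Hochberg adjustment), and it was the only member higher at an unadjusted p under 0.05.

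The ratio of Hspd1 to Hspe1 was 0.551, 0.579 and 0.571 with DDK and 0.639, 0.944 and 0.848 with vehicle, so as deposited the ratio was lower in every DDK liver than in every vehicle liver. With each library's trend on gene length subtracted, the log2 differences were 0.02 for Hspd1 and −0.11 for Hspe1, so the direction of the ratio between the group means turned. The genes start head to head and overlap by 112 bp on opposite strands, where fragments are not separated by strand. Hspe1, at 768 bp, and Hspb1, at 903 bp, are short genes, and genes of 148 to 1733 bp had a median log2 fold change of 0.10. Over the 4 classes of longer genes that median lay between −0.31 and −0.20. Hspe1 and Hspb1 are in the first of these classes.

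Of the 10 genes, 8 had DDK and vehicle values that did not overlap, 6 with DDK lower and 2 (Hsf1 and Hspe1) with DDK higher. Over all genes tested 53.3% did not overlap, 39.2% with DDK lower and 14.1% with DDK higher. With 3 livers against 3 an exact permutation test of a single gene cannot give a two-sided p below 0.1, so the calls rest on the spread that limma pools over genes. In vehicle livers the order by mean FPKM ran from Hspa8 through Hspe1, Hspd1, Hspb1, Hsp90aa1, Dnajb1, Hspa1b, Hsph1 and Hsf1 to Hspa1a. In that order neighbours with overlapping ranges were Hspe1 and Hspd1, Hspb1 and Hsp90aa1, and each adjacent pair from Dnajb1 to Hsf1. In DDK livers Hsf1 stood above Hsph1 and Hspa1b with no overlap, and Hsph1, Hspa1b and Hspa1a overlapped their neighbours. Summed over the 10 genes the level was 900, 801 and 807 FPKM with DDK and 947, 1033 and 923 FPKM with vehicle, a sum in which the genes that were not called hold the greatest part.

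The order of the livers within a group varied with the gene. DDK liver 2 was the lowest of its group for 8 of the 10 genes and DDK liver 3 the highest for 7. Vehicle liver 1 was the lowest of its group for 6 genes and the highest for the other 4, vehicle liver 2 was the highest for 6 and the lowest for 1, and vehicle liver 3 was the lowest for 3. Among the 6 genes called lower the order varied less. DDK liver 2 was the lowest for 5 of them and DDK liver 3 the highest for 5, and vehicle liver 1 was the lowest for 5 and vehicle liver 2 the highest for 5. The first principal component of all genes, with 75.0% of the variance, placed the DDK livers at −30.4, −36.4 and −23.6 and the vehicle livers at 14.1, 36.2 and 40.0. On that component DDK liver 3 and vehicle liver 1 were the livers nearest to the other group.

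The genes most like 4 of the members over the 6 libraries, by Pearson r of log2(FPKM + 1) among 9210 genes with a mean of at least 1 FPKM, are given as a description. The points share the 2 groups and the library totals. For Hspa1b they were Morf4l2 (0.999), Gbe1 (0.998) and Shld2 (0.998), and for Hspb1 they were Phf10 (0.995), Rnf34 (0.994) and Nutf2 (0.994). For Hspa8 they were Aatk (0.988), Fabp7 (0.984) and Tigd2 (0.983), and for Hspd1 they included Brd9 (0.992) and Ccnc (0.992).

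The scaling of the libraries changed the balance of calls over all genes. As deposited, 1093 genes were called higher and 3234 lower. With median-ratio scaling these counts were 1963 and 1650, with the trend on gene length subtracted 1722 and 1844, and with rescaling to TPM (length-scaled shares of each library) 631 and 4929. Voom on the fragments recovered from the FPKM steps called 1854 higher and 1739 lower. Over all genes the median log2 difference was −0.23 as deposited, 0.00 with median-ratio scaling and −0.45 with TPM. Relative to the median of all genes as deposited, the median of the 10 members lay at a log2 difference of −0.49. Hspa1b, Hsph1, Hspb1 and Hsp90aa1 were called lower in all 20 alternative analyses, with log2 fold changes of −2.82 to −1.76, −1.51 to −0.86, −1.66 to −1.04 and −1.47 to −0.92. Hspa1a was called in 15 of the 20 and Dnajb1 in 12. Hsf1 was called higher in 3 of the 20 (median-ratio scaling, quantile normalization and the length correction) and turned to −0.03 with TPM. Hspa8 was called lower in 2 and Hspd1 in 3 of the 20, and Hspe1 was called higher in 3. The log2 differences of those 4 genes changed sign under at least 1 of these alternatives.

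**Figure D3:**
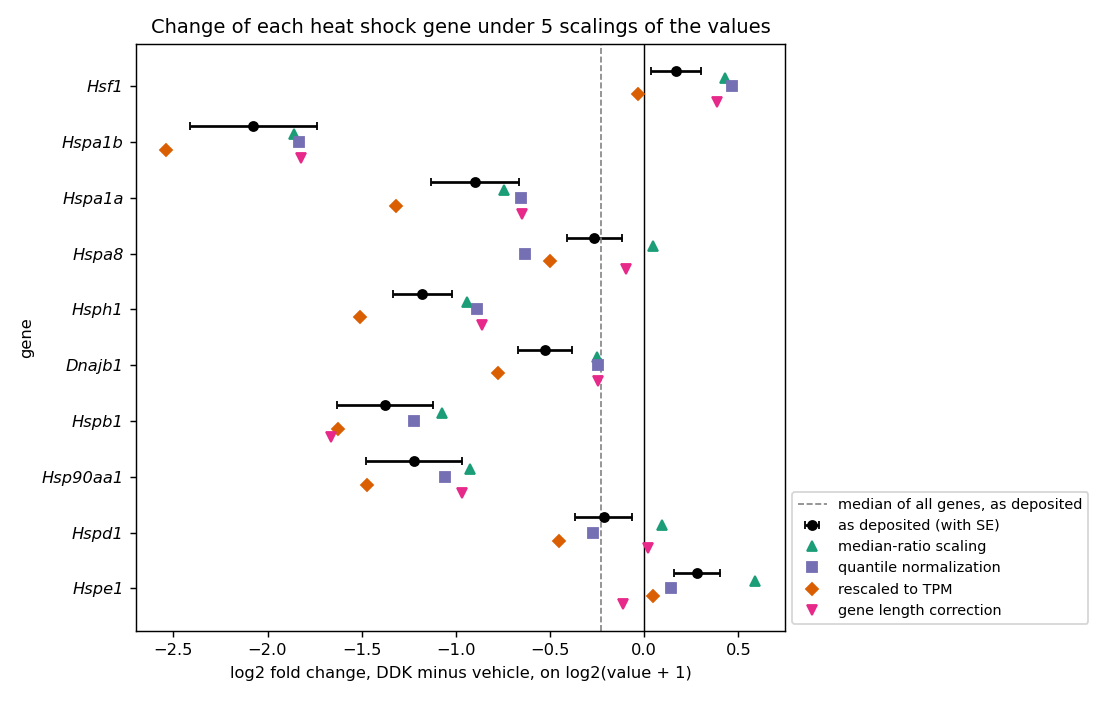
Log2 fold change of DDK against vehicle (x axis, on log2(value + 1)) for each heat shock gene (y axis), as deposited with its SE (black) and under 4 other scalings (coloured symbols), with the median of all genes dashed. Hspa1b, Hsph1, Hspb1 and Hsp90aa1 stay left of −0.8 under all 5 scalings, while Hsf1, Hspa8, Hspd1 and Hspe1 have symbols on both sides of 0.

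Other chaperone genes were read from lists taken by function. Beside each count stand the 30.3% lower and 10.2% higher over all genes. Among the other HSP70 family genes 4 of 5 measured fell and 0 rose, among them Hspa4l (log2 fold change −0.82), a nucleotide exchange factor of the HSP110 class, Hspa13 (−0.76) and Hspa14 (−0.58), all by limma with Benjamini-Hochberg adjustment. At an unadjusted p under 0.05, 4 were lower and 0 higher. The count lower was 2 by voom and with median-ratio scaling, where 0 were higher, and 1 without DDK replicate 2. Among 20 J protein genes 5 fell and 2 rose. Dnajb6, which keeps aggregation-prone proteins soluble (log2 fold change −1.44), Dnaja1, which partners HSP70 (−0.88), and Dnajb2 (−0.53) fell, and Dnajc17 (0.62) and Dnajc2 (0.43) rose. The list median of −0.29 was close to the −0.23 of all genes, and the counts were 2 lower and 2 higher with median-ratio scaling and by voom, and 11 lower and 0 higher with TPM.

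Among Hsp90ab1 and the HSP90 co-chaperones, 5 of 19 genes fell and 3 rose. The balance turned with the scaling, with 1 lower and 4 higher under median-ratio scaling and 11 lower and 1 higher with TPM. Chordc1 (log2 fold change −1.04) and Ahsa1 (−0.58), which stimulates the HSP90 ATPase, were among those that fell. Sugt1 (0.61), the ubiquitin ligase gene Stub1 (0.56) and Ptges3 (0.38), which encodes the co-chaperone p23, rose. Of 8 nucleotide exchange factors and BAG proteins Bag3 fell and Bag1 rose (0.38), and with TPM 5 were lower and 0 higher. Bag3, which links HSP70 and small heat shock proteins to selective autophagy, went from 12.8 ± 2.87 to 5.38 ± 1.05 FPKM (SD, n = 3 each), a log2 fold change of −1.10 (adjusted p = 0.0028, limma with Benjamini-Hochberg adjustment).

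Among 19 other genes known as heat-inducible targets of heat shock factor 1, 8 fell and 2 rose. All of the 8 but Serpinh1 (Bag3, Dnaja1, Hspa4l, Hspa4, Chordc1, Ahsa1 and Hsp90ab1) were already counted in the lists above. Serpinh1 had the smallest p, with a log2 fold change of −1.25 (adjusted p = 0.000928, limma with Benjamini-Hochberg adjustment). It encodes the collagen chaperone HSP47, and markers of collagen-making cells were lower in the same livers, as given below. Ptges3 was among those that rose. The list median of −0.34 lay −0.11 from that of all genes, and the count lower was 5 with median-ratio scaling and 13 with TPM. In the HSF family and its regulators 2 of 10 genes rose, the coactivator gene Crebbp (0.52) and Hsbp1l1 (0.75), and 0 fell by limma, with 1 lower at an unadjusted p under 0.05 and 0 by voom. These counts were not stable, with 4 higher and 0 lower under median-ratio scaling and 1 higher and 2 lower with TPM. Library weights gave 3 higher and 3 lower, and 0 were higher without DDK replicate 1 or without vehicle replicate 3. Sirt1, whose product deacetylates heat shock factor 1, differed by −0.22 ± 0.18 (SE) on the log2 scale and was not called (adjusted p = 0.335, limma with Benjamini-Hochberg adjustment). It was called lower with library weights (−0.38, adjusted p = 0.0385) and without vehicle replicate 1 (−0.39, adjusted p = 0.0494), stood at −0.08 without vehicle replicate 2, and changed sign with quantile normalization and the length correction.

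Not every chaperone system moved with the inducible genes. Of the 4 other genes measured in the small heat shock protein list, which was drawn up by gene name (Hspb6, Hspb8, Hspb11 and Cryab), 0 were called by limma and 0 by voom. Of these, 0 had an unadjusted p under 0.05, and Cryab had the smallest p (log2 difference −0.23, adjusted p = 0.404, Benjamini-Hochberg). Of the 8 subunits of the cytosolic chaperonin TRiC 0 were called by limma, while 3 had an unadjusted p under 0.05 (1 higher, 2 lower) and voom called 1 higher. This too depended on the scaling, with 2 higher and 0 lower under median-ratio scaling and 0 higher and 4 lower with TPM. Cct7 had the smallest p there (0.31, adjusted p = 0.0633, Benjamini-Hochberg). In prefoldin, which hands actin and tubulin to TRiC, 4 of 6 genes rose, among them Pfdn6 (log2 fold change 1.34), Pfdn1 (0.99) and Pfdn2 (0.72), and Vbp1 fell (−0.65). Pfdn6, at 515 bp, and Pfdn1, at 1077 bp, are short genes. With the length correction 4 were higher and 0 lower, and the list median lay 0.62 above that of all genes, against 1.08 as deposited. Of 19 mitochondrial chaperones and proteases 10 fell and 3 rose, but the balance depended on the scaling, with 2 lower and 3 higher under median-ratio scaling and 15 lower and 2 higher with TPM. Pmpca (log2 fold change −0.82) and Pmpcb (−0.66), the subunits of the mitochondrial processing peptidase, and Afg3l2 (−0.71) fell. Hscb (1.03), Clpp (0.87) and Dnajc19 (0.40) rose, of which Hscb, at 839 bp, and Clpp, at 1207 bp, are also short. Trap1, the mitochondrial HSP90, fell (−0.54, adjusted p = 0.00682), as did Hspa9, the mitochondrial HSP70 (−0.52, adjusted p = 0.0339, both limma with Benjamini-Hochberg adjustment). Of the chaperone genes named outside the members, Hspa14, Dnajb2, Hsp90ab1, Ahsa1, Vbp1, Pmpcb, Trap1 and Hspa9 lost their call under median-ratio scaling, and Dnajc17, Dnajc2, Stub1, Ptges3, Bag1, Crebbp and Dnajc19 lost it with TPM. With each of the 6 libraries left out in turn, the calls of Ptges3, Bag1 and Dnajc19 were lost in 5 of the 6, those of Dnajc2, Stub1, Hspa9 and Vbp1 in 4, that of Dnajc17 in 3, those of Crebbp, Hsbp1l1 and Hspa14 in 2 and that of Hspa4l in 1.

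**Figure D4:**
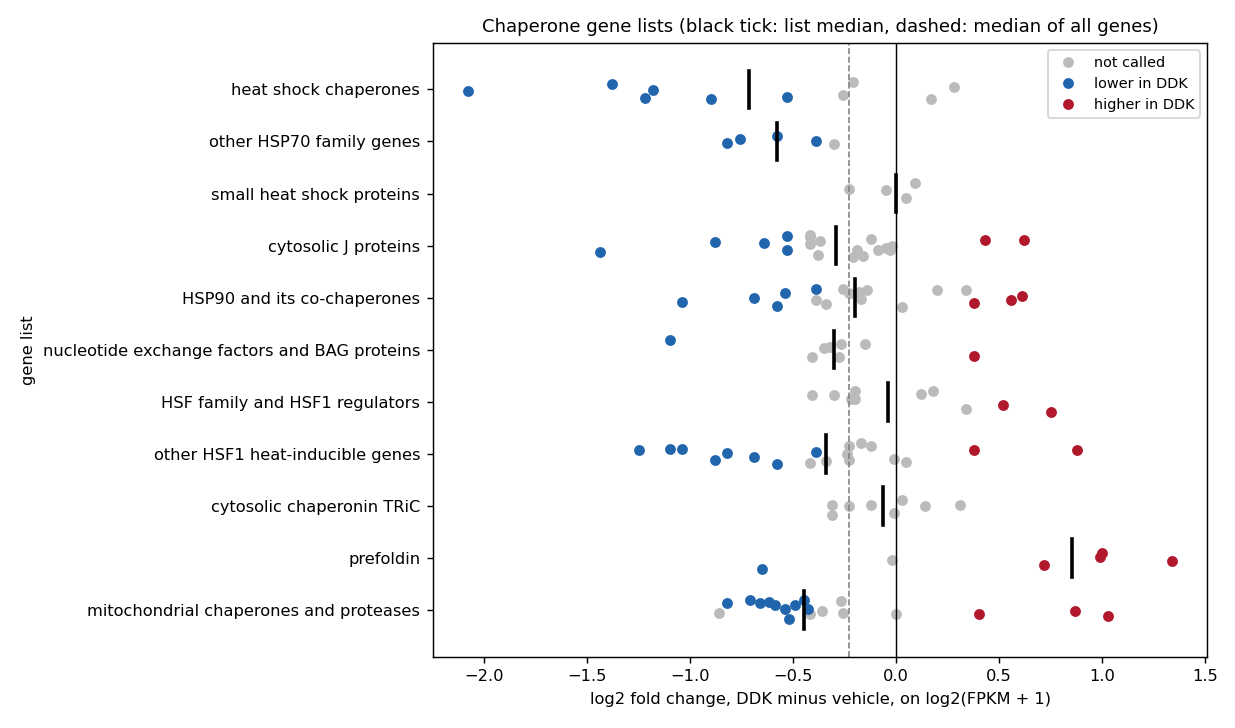
Log2 fold change of each measured gene (x axis, DDK minus vehicle on log2(FPKM + 1)) in 11 chaperone gene lists (y axis), coloured by whether it was called, with the list median as a black tick and the median of all genes dashed. The 10 heat shock genes have a median of −0.71, and prefoldin is the list with its median furthest to the right, at 0.86.

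Temperature, time of day and handling also move chaperone transcripts, so genes that report on them were read in the same livers. Of 3 cold-inducible RNA-binding protein genes measured, Cirbp rose (0.53, adjusted p = 0.0257, a call lost with TPM) and Rbm3 fell (−0.90, adjusted p = 0.00379, both limma with Benjamini-Hochberg adjustment). Of 15 clock genes 5 rose, with Dbp at 0.87, Per3 at 0.84 and Tef at 0.59 on the log2 scale, and 3 fell, with Bhlhe40 at −1.65, Nfil3 at −0.83 and Hlf at −0.45. Among 14 immediate early genes, which respond to stimuli within minutes, 4 rose and 1 fell. Ier2 (log2 fold change 2.10), Egr1 (1.65) and Junb (1.46) rose, and Klf6 fell (−1.30). The counts depended on the scaling. Of the clock genes 2 were higher and 4 lower with TPM, and 7 higher and 1 lower with quantile normalization. Of the immediate early genes 3 were higher and 3 lower with TPM, and 5 higher and 1 lower with median-ratio scaling. With each of the 6 libraries left out in turn, the call of Hlf was lost in 4, that of Cirbp in 3, that of Tef in 2 and that of Egr1 in 1. The labels give neither a time of day nor a time to freezing, and the part of these differences in the heat shock result was not tested.

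Markers of some cell types in the liver differed between the groups as well. Summed macrophage markers were 149 to 376 FPKM with DDK and 528 to 868 FPKM with vehicle, and 9 of 12 fell. Markers of stellate cells, fibroblasts and smooth muscle summed to 66.5 to 89.1 FPKM with DDK and 143 to 188 FPKM with vehicle, with 7 of 11 lower. Endothelial markers summed to 71.9 to 96.4 and 95.7 to 144 FPKM, so the groups overlapped. Of these 5 of 12 were lower, and 3 with median-ratio scaling and by voom. Summed hepatocyte markers were 70340 to 73780 FPKM with DDK and 47930 to 59120 FPKM with vehicle, with 5 of 15 higher and 3 lower. No marker in these 4 lists was at 0 in all libraries. Summed T, NK and B cell markers overlapped, at 7.36 to 14.7 FPKM with DDK and 5.64 to 11.9 with vehicle, with 0 of 4 called. Cholangiocyte sums overlapped too, at 36.3 to 62.1 and 46.4 to 68.7 FPKM, with 1 of 5 higher and 0 lower. Red blood cell sums were 368 to 726 and 392 to 530 FPKM, with 2 of 5 higher and 1 lower. Neutrophil sums were 2.42 to 9.04 and 10.96 to 13.95 FPKM, with 1 of 2 lower. Hspb1, Hsp90aa1 and the other chaperone genes are expressed in many cell types, and the part of cell composition in their fall was not tested.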

How the data were processed

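Liver RNA of 3 DDK and 3 vehicle mice was sequenced from libraries made with a NEBNext Ultra RNA kit, per the labels' protocols. Values were the authors' deposited FPKM for 22173 symbols, 1 column per liver, with groups taken from the treatment label. The build was GRCm38 (mm10), per the submitters' processing notes. Not given in the sources used here are the aligner, the counting program and the annotation. Gene positions are from GENCODE on GRCm38. FPKM steps were whole fragments, within 0.01 of a fragment in every library, for 16572 of 16573 symbols above 0. They gave totals of 28756915, 26576291 and 30237490 fragments (DDK 1 to 3) and 36105315, 34172473 and 33963898 (vehicle 1 to 3).

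Genes with at least 0.5 FPKM in at least 3 libraries were tested on log2(FPKM + 1) by limma 3.58.1 (R 4.3.3) with a variance trend and Benjamini-Hochberg adjustment over all of them, at an adjusted p under 0.05. The script was run on simulated data with the same spread for every gene, which does not test the choice of scaling. The labels number the livers 1 to 3, and p-values measure the spread between these livers. Alternatives changed the pseudocount, filter, scaling, length correction, variance model, test and libraries. Members, lists and tests were chosen with earlier results of these data known. Named genes are all members, up to 3 called genes with the smallest p per list and direction (otherwise the 1 with the smallest p), Sirt1, Hspa9, Trap1, Hsp90ab1, Bag3, Dnaja1, Cirbp and Rbm3, and the 3 most similar genes of Hspa8, Hspa1b, Hspb1 and Hspd1. Some genes that meet this rule are not reported here.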

Additional observations from a re-analysis of the deposited data

How the results depend on the processing

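Across all genes 4327 were called. The count was 2033 at an adjusted p under 0.01 and ran from 2348 to 5686 when each library was left out in turn, with 2348 without DDK replicate 2, 2796 without DDK replicate 1 and 2490 without vehicle replicate 3. Members called lower numbered 6, and 4 to 7 with a library left out. Members called higher, 0 as reported, were 2 with median-ratio scaling and 1 each with quantile normalization, the length correction, library weights, voom on recovered fragments and an adjusted p under 0.1.

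Hspa1a was not called with no filter (adjusted p = 0.062), quantile normalization (0.0512), the length correction (0.0552), without DDK replicate 1 (0.051) or without vehicle replicate 3 (0.0522). Dnajb1 was not called with median-ratio scaling (0.165), quantile normalization (0.163), the length correction (0.14), voom (0.139), or with DDK liver 1 (0.0695), DDK liver 2 (0.0796), vehicle liver 2 (0.0685) or vehicle liver 3 (0.0567) left out, all adjusted p from limma. The cause was not tested.

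Log2 differences that changed sign, none of them called in the analysis as reported, were those of Hsf1 (-0.0311 with TPM), Hspa8 (0.0456 with median-ratio scaling, 0.0172 with voom), Hspd1 (0.0954 with median-ratio scaling, 0.0178 with the length correction, 0.0673 with voom), Hspe1 (-0.112 with the length correction), Cryab (0.0118 with median-ratio scaling, 0.0684 with quantile normalization, 0.0025 with voom, and -0.391 to 9e-04 with a library left out, the last without DDK replicate 2) and Sirt1 (0.0762 with quantile normalization, 0.0818 with the length correction).

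With a replicate block 4134 genes were called (1052 higher, 3082 lower), with 0 members higher and 6 lower, and of the named genes only Ptges3 lost its call (adjusted p = 0.0575, limma). The labels tie no numbers across groups. Deviations of same-numbered livers correlated at 0.141, -0.146 and 0.056, so the numbers were not taken to pair the livers.

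Limits are 3 livers a group, 6 to 81 fragments for Hspa1a with DDK, and unknown handling of fragments shared by Hspa1a and Hspa1b.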
